A study of Mus musculus with 45 samples.

Results

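The 10 genes described here, Pou5f1, Nanog, Klf4, Esrrb, Zfp42, Tfcp2l1, Tbx3, Utf1, Lin28a and Dppa4, are genes of the pluripotency network of mouse embryonic stem (ES) cells. They were taken by symbol from the 54532 genes of the deposited count table, and each symbol matched 1 row. RNA was sequenced from neuroepithelial organoids grown from single cells of the R1 line, a line of mouse ES cells, in Matrigel and N2B27 medium. The organoids were collected at day 2, before any treatment, and then at 7 times, first 8 h and last 78 h later, either untreated or with 250 nM all-trans retinoic acid (RA) added at day 2. Each of the 15 conditions had 3 biological replicates, which gave 45 libraries of bulk RNA from organoids recovered from the gel. All groups share the cell line, the gel and the medium, and the untreated organoids are the control of the RA-treated ones at the same time. The comparisons ask how fast each gene was lost after day 2, and whether that speed differed with RA.

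Pluripotency is held by a small network of transcription factors that bind each other's genes. Pou5f1 (Oct4) and Nanog stand at its centre. Klf4, Esrrb, Tfcp2l1 and Tbx3 are factors of the naive state, which is the state of ES cells and of the preimplantation epiblast, and Zfp42 (Rex1) is the gene most used as a marker of that state. Utf1 and Dppa4 encode chromatin-associated proteins of pluripotent cells, and Lin28a encodes an RNA-binding protein that blocks maturation of let-7 miRNAs and that is also made by early neural progenitors. RA is a ligand of nuclear receptors, which bind direct or inverted repeats of the half-site AGGTCA, and it is a classical agent of ES cell differentiation that also patterns the neural tube. When ES cells leave the naive state they pass through a formative, epiblast-like state that keeps Pou5f1 and gains Otx2 and Fgf5.

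The sequences upstream of 4 of the genes are shown because these genes differ in their response to RA. Pou5f1 was called lower with RA at every time from 18 h on and Utf1 from 18 h to 66 h, whereas Nanog and Zfp42 were not called in any comparison of RA-treated with untreated organoids. Of the 10 genes, 8 have an entry in the RefSeq promoter table (GRCm38.p6); Tbx3 and Dppa4 have none. The bases from 250 before each start were searched on both strands for the core of the octamer, TTTGCAT, to which Pou5f1 binds, and for the nuclear receptor half-site, AGGTCA. Matches are in capitals, and the reverse complement of the half-site is TGACCT. The windows end before the transcription start of both annotations, and each is written 5′ to 3′ on the strand of its gene.
Pou5f1, chr17:35505782-35506017, plus strand: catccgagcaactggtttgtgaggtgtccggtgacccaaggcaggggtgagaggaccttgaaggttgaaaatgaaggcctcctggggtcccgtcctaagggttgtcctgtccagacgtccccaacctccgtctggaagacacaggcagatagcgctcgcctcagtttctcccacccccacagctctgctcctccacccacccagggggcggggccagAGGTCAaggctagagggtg
Utf1, chr7:139943606-139943788, plus strand: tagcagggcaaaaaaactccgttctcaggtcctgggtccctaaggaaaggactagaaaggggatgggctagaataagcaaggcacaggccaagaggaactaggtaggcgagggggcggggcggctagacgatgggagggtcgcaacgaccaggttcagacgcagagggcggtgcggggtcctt
Nanog, chr6:122707239-122707488, plus strand: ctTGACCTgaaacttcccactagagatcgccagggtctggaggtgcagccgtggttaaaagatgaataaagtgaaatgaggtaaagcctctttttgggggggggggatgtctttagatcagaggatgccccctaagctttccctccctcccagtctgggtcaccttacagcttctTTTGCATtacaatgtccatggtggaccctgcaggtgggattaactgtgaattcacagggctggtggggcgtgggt
Zfp42, chr8:43307010-43307259, minus strand: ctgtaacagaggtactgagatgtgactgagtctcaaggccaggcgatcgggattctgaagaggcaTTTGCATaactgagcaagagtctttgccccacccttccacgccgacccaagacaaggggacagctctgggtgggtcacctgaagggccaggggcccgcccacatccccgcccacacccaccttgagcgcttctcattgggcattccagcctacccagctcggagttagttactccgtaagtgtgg
The half-site was found in Pou5f1, 33 bases before its RefSeq start, and in Nanog, 248 bases before, and the octamer core in Nanog, 75 bases before, and in Zfp42, 185 bases before. Neither motif was found in the Utf1 window. Of the 8 genes, 2 held the octamer core and 2 the half-site in any of their windows. Of 32851 promoter windows of the same length, 4.12% held the octamer core and 14% the half-site. These units differ, because Esrrb, Nanog and Pou5f1 each have several windows. A match describes these letters and is not evidence of binding.

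At day 2 the 10 genes spanned a wide range of levels. Levels between genes are compared in RPKM (counts scaled for merged exon length and library size), and all other levels are CPM (counts scaled for library size alone), which can be compared only for 1 gene between libraries. Pou5f1 was the highest, at 443 ± 37.7 RPKM (SD, n = 3), followed by Utf1 at 304 ± 57.4 RPKM, Lin28a at 253 ± 8.25 RPKM, Zfp42 at 144 ± 4.18 RPKM and Dppa4 at 110 ± 6.99 RPKM. Nanog was at 67.9 ± 4.09 RPKM, Esrrb at 30.8 ± 1.18 RPKM, Tfcp2l1 at 12.2 ± 0.108 RPKM, Klf4 at 6.61 ± 0.565 RPKM and Tbx3 at 2.99 ± 0.032 RPKM. Each step in this order was larger than the SD of both its genes except that between Utf1 and Lin28a, which was smaller than the SD of Utf1. Together the 10 genes took 0.302% ± 0.011 (SD, n = 3) of all counts at day 2. By 78 h this share was 0.164% ± 0.004 in untreated and 0.0934% ± 0.014 in RA-treated organoids. The share is weighted to genes with many counts. At 78 h Lin28a was at 1016 CPM without RA and 400 CPM with RA, and Pou5f1 at 277 and 93.8 CPM. The median log2 difference between the arms over the 10 genes was 0.44 at that time, so the share does not describe the set gene by gene. In bulk RNA, fewer cells that express a gene and less RNA of it per cell cannot be told apart.

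Total counts lay between 17298632 and 39688686 per library, and every one of the 10 genes passed the filter on low counts in every comparison. The libraries were not uniform in 4 genes of the Y chromosome, whose mean was 1.22 to 3.73 CPM in 6 libraries and 22.6 to 89.9 CPM in the other 39. The 6 are RA 8 h replicate 3, the 3 untreated libraries of 30 h and RA 30 h replicates 1 and 3, and at 30 h no untreated library is free of this difference. Replicates also differed in the genes studied here. At RA 54 h, replicate 1 was the lowest of the 3 libraries for 10 of 10 genes, and at RA 78 h replicate 3 was the lowest for 10 of 10. A gene was called in a comparison at a Benjamini-Hochberg adjusted p under 0.01 with a log2 fold change above 1 or below -1, from the quasi-likelihood test of edgeR across all genes, and p-values measure the spread between the replicates.

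**Figure D1:**
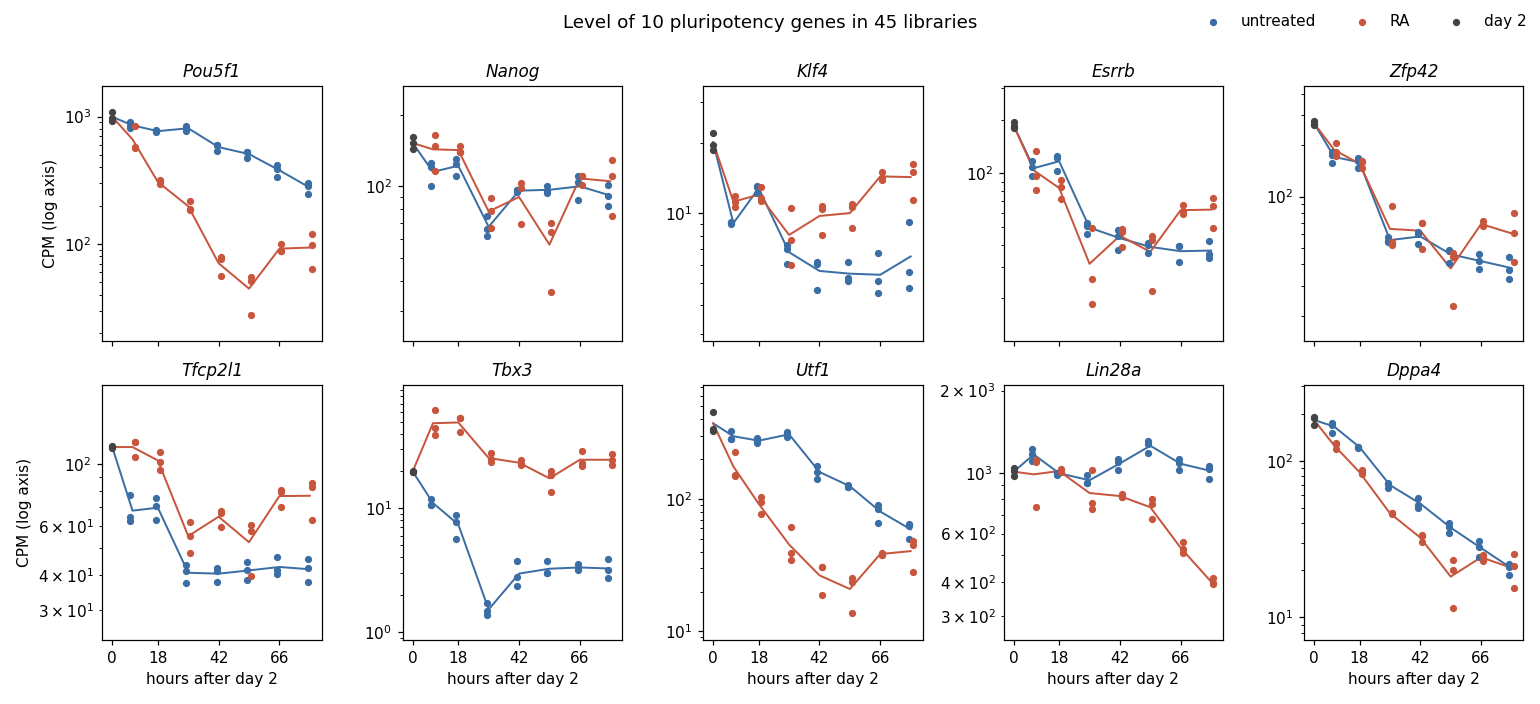
CPM (log axis, 1 scale per gene) of each gene against hours after day 2; each point is 1 library, grey for day 2, blue for untreated and red for RA-treated organoids, and lines join the means. Pou5f1 and Utf1 are lower with RA from 18 h to 78 h with no overlap of libraries, Tbx3 is higher with RA at every time, and Lin28a lies at its day 2 level at 78 h without RA, at 101% ± 5.68, but at 39.6% ± 1.2 with RA.

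Without RA, most of the 10 genes were called lower than at day 2 at 42 h, but only 1 at 8 h and 1 at 18 h. Comparisons with day 2 were run at 8 h, 18 h, 42 h and 78 h only, so 30 h was not tested. At 8 h, 1 of 10 genes was called lower than at day 2 (Klf4), where 0.375% of all genes tested were called in either direction, and at 18 h it was again 1 gene (Tbx3), against 3.71% of all genes. At 42 h, 7 of 10 genes were lower and none higher, against 19.8% of all genes, and at 78 h 8 of 10, against 31.2%. The median log2 change over the 10 genes was -0.53 at 8 h, -0.62 at 18 h, -1.65 at 42 h and -2.09 at 78 h, where that over all genes lay between -0.01 and 0.00. Nanog and Lin28a were the exceptions at 78 h. Pou5f1 was called lower at 78 h but not at 42 h, when its log2 change was -0.79 ± 0.17 (SE). At 30 h, untreated means were at 7.68% of day 2 for Tbx3, 20.6% for Zfp42, 26.7% for Esrrb and 33.6% for Klf4. They were at 35.3% for Tfcp2l1, 38.3% for Dppa4, 44.4% for Nanog, 81.4% for Pou5f1, 82.6% for Utf1 and 93% for Lin28a. All untreated libraries of 30 h had low Y-linked genes.

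With RA the same comparisons with day 2 gave earlier calls for some genes and none for others. At 8 h, Tbx3 was higher and Utf1 lower than at day 2, 2 of 10 genes against 7.74% of all genes. Utf1 was no longer called without any 1 of day 2 replicate 3, RA 8 h replicate 1 or RA 8 h replicate 2, with log2 changes of -0.920, -0.990 and -0.963. At 18 h, Tbx3 was higher and Pou5f1, Esrrb, Utf1 and Dppa4 were lower, 5 of 10 genes against 18.3%. Scaled by library totals, which moved the median of all genes in this comparison by 0.20 on the log2 scale, Esrrb (-0.962) and Dppa4 (-0.906) were not called, which left 1 gene higher and 2 lower. At 42 h, 6 of 10 genes were lower against 30.4% of all genes, and at 78 h 6 of 10 against 34.9%, with none higher at either time. Klf4 at 42 h, with a log2 change of -1.05, was not called without day 2 replicate 3 (-0.979) or RA 42 h replicate 1 (-0.933), nor with library totals (-0.857). The medians of the 10 genes were -0.53, -0.77, -1.55 and -1.45 at the 4 times, and those of all genes 0.01 to 0.06. Both arms were set against the same day 2 libraries. All libraries of 66 h and 78 h, but only 1 of the 3 day 2 libraries, have the higher library numbers in their titles, so that time and library number cannot be told apart in most of the comparison of 78 h with day 2.

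The speed of early loss was compared as a slope, the change in log2 level per 10 h from day 2 to 18 h, fitted over 15 libraries with 1 shared day 2 level. Of the 10 genes, 3 had a lower slope with RA (Pou5f1, Utf1 and Dppa4) and 2 had a higher slope with RA (Tfcp2l1 and Tbx3), at an adjusted p under 0.01, where 28.7% of all genes tested passed in either direction. Utf1 had the steepest fall, with a slope of -1.09 ± 0.09 (SE) with RA and -0.20 ± 0.09 without (edgeR adjusted p of the difference = 8.5e-07). Pou5f1 had slopes of -0.92 ± 0.07 with RA and -0.24 ± 0.07 without (adjusted p = 8.7e-07). For Dppa4 they were -0.63 ± 0.04 with RA and -0.31 ± 0.04 without (adjusted p = 3.7e-06), so that Dppa4 was lost in both arms. Tbx3 had slopes of opposite sign, 0.77 ± 0.16 with RA and -0.97 ± 0.16 without (adjusted p = 5.5e-07). Tfcp2l1 had a slope of -0.41 ± 0.08 without RA and of -0.01 ± 0.08 with it (adjusted p = 0.00072). These 5 genes were called in each of the 15 fits that left out 1 library, RA 8 h replicate 3 included.

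The other 5 genes had differences of slope that did not pass the test. Zfp42 was lost with slopes of -0.37 ± 0.06 with RA and -0.39 ± 0.06 without, a difference of 0.01 ± 0.06 with an interval of the difference from -0.10 to 0.13 (adjusted p = 0.89). Lin28a had slopes near 0 in both arms, and the difference was -0.04 ± 0.06 (adjusted p = 0.65). Esrrb had slopes of -0.55 ± 0.11 with RA and -0.31 ± 0.10 without (adjusted p of the difference = 0.065). For Nanog they were 0.00 ± 0.07 and -0.16 ± 0.07 (adjusted p = 0.046), and scaled by library totals this difference was called, at 0.234 (adjusted p = 0.005). Klf4 had a slope of -0.28 in both arms, with standard errors of 0.14 with RA and 0.13 without.

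**Figure D2:**
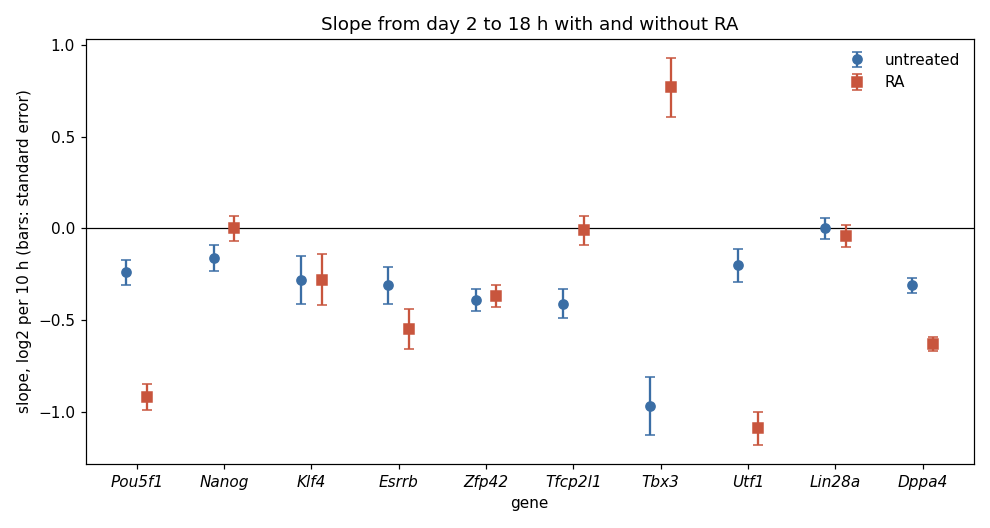
Slope of each gene from day 2 to 18 h, in log2 per 10 h, without RA (blue circles) and with RA (red squares); bars are standard errors from a fit of 15 libraries. Pou5f1, Utf1 and Dppa4 lie lower with RA, Tfcp2l1 and Tbx3 lie higher, and Zfp42 has nearly the same slope in both arms.

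The time at which each gene first reached 50% of its day 2 level put the genes in a different order in the 2 arms. These times are a description, read from straight lines between the mean log2 levels of neighbouring time points. Without RA the order was Klf4 at 7.0 h, Tbx3 at 10.7 h, Zfp42 at 19.9 h, Esrrb at 21.2 h, Tfcp2l1 at 22.2 h, Dppa4 at 24.3 h, Nanog at 27.6 h, Utf1 at 39.4 h and Pou5f1 at 54.9 h, and Lin28a did not reach 50%. With RA it was Utf1 at 7.3 h, Pou5f1 at 11.6 h, Esrrb at 12.2 h, Dppa4 at 16.1 h, Zfp42 at 19.9 h, Klf4 at 23.1 h, Tfcp2l1 at 29.0 h, Nanog at 45.9 h and Lin28a at 68.2 h, and Tbx3 did not reach 50%. Utf1 and Pou5f1 were the last to reach 50% without RA and had the shortest times with it, where the range of Esrrb over leaving out 1 library overlapped theirs. Over leaving out 1 library, 4 genes had earlier ranges with RA: Pou5f1 (52.3 to 56.7 h without RA, 10.3 to 12.2 h with it), Utf1 (38.2 to 41.3 h and 6.2 to 8.6 h), Dppa4 (23.5 to 24.8 h and 15.1 to 16.7 h) and Esrrb (20.8 to 21.8 h and 7.5 to 14.3 h). In 3 genes the ranges were later with RA: Klf4 (6.7 to 7.4 h without RA, 21.8 to 25.5 h with it), Tfcp2l1 (21.5 to 22.8 h and 28.1 to 48.0 h) and Nanog (26.8 to 28.3 h and 29.2 to 48.8 h). The time of Klf4 without RA is a first crossing that did not last. Untreated Klf4 was at 44.9% ± 0.308 of day 2 at 8 h and 63.4% ± 2.38 at 18 h. With RA it was at 55.6% ± 2.99 and 59.5% ± 4.57. At 8 h the log2 difference between the arms was 0.32 ± 0.12 (edgeR adjusted p = 0.11). The range of Zfp42 was the same in both arms, 19.6 to 20.2 h. With RA, Tfcp2l1 was at 48.0 h without RA 30 h replicate 1, Esrrb at 7.5 h without RA 8 h replicate 3, and Nanog at 29.2 h without RA 30 h replicate 2 and 29.9 h without day 2 replicate 3.

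Because the 30 h libraries stand apart, the times were also read without that time point. Pou5f1 and Tbx3 had the same result in both arms, and so had Utf1 and Dppa4 with RA. The largest changes were in Nanog without RA, which then did not reach 50%, in Klf4 with RA, from 23.1 to 37.9 h, and in Tfcp2l1 with RA, from 29.0 to 48.0 h. Nanog without RA lay at 44.4% ± 4.54 (SD, n = 3) of its day 2 level at 30 h but at 63% ± 0.816 at 42 h and 60.1% ± 5.92 at 78 h. Its time to 50% thus rests on 3 libraries with low levels of the Y-linked genes, and their part in the result was not tested.

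**Figure D3:**
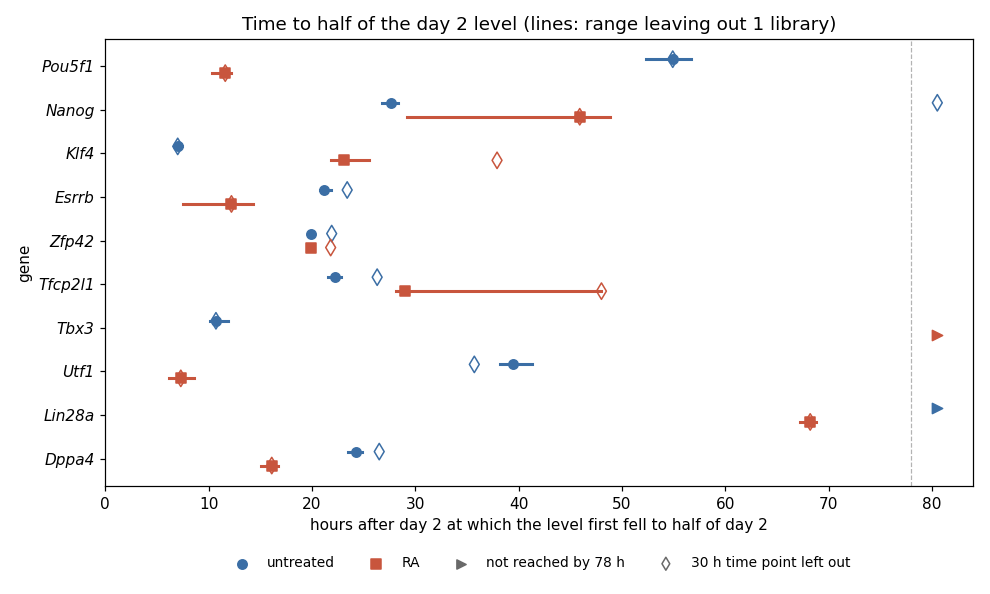
Hours after day 2 at which each gene first reached 50% of its day 2 level without RA (blue circles) and with RA (red squares); horizontal lines are the range over leaving out 1 library, open diamonds are the times without the 30 h time point, and marks to the right of the dashed line at 78 h were not reached. Pou5f1 moves from 54.9 h without RA to 11.6 h with RA and Utf1 from 39.4 h to 7.3 h, while Zfp42 stays at 19.9 h.

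Pou5f1 (ENSMUSG00000024406, chr17:35506018-35510772 on GRCm38, plus strand) encodes the POU factor Oct4, without which no pluripotent cells form. It was at 981, 920 and 1088 CPM in the day 2 libraries. At 8 h it was at 814, 845 and 904 CPM without RA and at 578, 570 and 841 CPM with RA. At 18 h the untreated libraries had 755, 770 and 782 CPM and the RA-treated ones 295, 316 and 311 CPM. The arms overlapped at 8 h, through RA replicate 3, and were apart at 18 h, where the log2 difference was -1.31 ± 0.05 (SE; edgeR adjusted p = 3.2e-10). At 8 h it was -0.35 ± 0.15 (adjusted p = 0.18), and the change of the RA effect from 8 h to 18 h did not pass the test, at -0.96 ± 0.24 (adjusted p = 0.016), although it did with DESeq2 (adjusted p = 0.004). The difference was -2.05 ± 0.10 at 30 h, -3.04 ± 0.12 at 42 h and -3.53 ± 0.19 at 54 h, or 11.6-fold lower with RA, and was called in all 6 fits without 1 library at each of the times from 18 h to 78 h. An antisense gene, Gm19553, overlaps 317 bases of Pou5f1 and had at most 16 counts in a library.

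Utf1 (ENSMUSG00000047751, chr7:139943789-139945112, plus strand), a chromatin-associated factor and a known target of Pou5f1 and Sox2, was also lower with RA. At day 2 it was at 339, 326 and 454 CPM. At 8 h it was at 283, 283 and 328 CPM without RA and at 152, 148 and 228 CPM with RA. These libraries did not overlap, but the log2 difference of -0.74 ± 0.17 missed both thresholds (adjusted p = 0.034). At 18 h the untreated libraries had 266, 273 and 289 CPM and the RA-treated ones 76.4, 95.6 and 104 CPM, a log2 difference of -1.57 ± 0.09 (adjusted p = 2.1e-08). The difference was -2.78 ± 0.22 at 30 h, -2.60 ± 0.15 at 42 h and -2.60 ± 0.16 at 54 h. Untreated Utf1 lay at 74% ± 3.17 of day 2 at 18 h, 82.6% ± 3.4 at 30 h and 42.9% ± 4.68 at 42 h. Over the 15 condition means of log2(CPM + 1), the Pearson correlation of Utf1 with Pou5f1 was 0.96, the highest of the 45 pairs of the 10 genes.

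Dppa4 (ENSMUSG00000058550, chr16:48283733-48294237, plus strand) encodes a DNA-binding protein of pluripotent and germ cells. It was at 188, 190 and 169 CPM at day 2, and at 8 h it was at 151, 169 and 174 CPM without RA and at 129, 119 and 128 CPM with RA. At 18 h it was at 123, 121 and 122 CPM without RA and at 87.3, 84.1 and 82 CPM with RA. The arms were apart at both times but by less than 2-fold, with a log2 difference of -0.38 ± 0.08 at 8 h (adjusted p = 0.025) and -0.52 ± 0.05 at 18 h (adjusted p = 1.2e-06). It was called at 54 h only, at -1.06 ± 0.18 (adjusted p = 0.00068), and not there without RA 54 h replicate 1, at -0.831. By 78 h both arms had the same level, 20.6 ± 1.68 CPM without and 20.7 ± 4.98 CPM with RA. The log2 difference was then 0.01 ± 0.15 with an interval from -0.27 to 0.30. Of the 75-base stretches of its exons, 20.1% also occur in Gm14058 or Gm5501, which had up to 230 counts in a library, so that its level is uncertain by the reads it may share with them.

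Lin28a (ENSMUSG00000050966, chr4:134003330-134018841, minus strand) was the gene whose level fell late and with RA. It was at 1039, 1018 and 974 CPM at day 2, and at 18 h at 1000, 986 and 1003 CPM without RA and at 1034, 1007 and 1006 CPM with RA. The log2 difference at 18 h was 0.04 ± 0.04 (adjusted p = 0.51). At 8 h RA replicate 3, one of the libraries with low Y-linked genes, was at 753 CPM and the other 2 RA libraries at 1112 and 1098 CPM. The untreated level stayed between 93% and 124% of day 2 at all times. With RA it went down late, to 815, 839 and 815 CPM at 42 h, 526, 511 and 558 CPM at 66 h and 394, 414 and 392 CPM at 78 h, where the untreated libraries had 951, 1033 and 1062 CPM. The log2 difference was -0.40 ± 0.05 at 42 h (adjusted p = 5.6e-05), -1.04 ± 0.05 at 66 h (adjusted p = 1.5e-07) and -1.35 ± 0.06 at 78 h (adjusted p = 1.1e-08). Scaled by library totals, the difference at 66 h was -0.980 and was not called. The RA effect at 78 h was lower than that at 18 h by a log2 difference of -1.37 ± 0.14 (adjusted p = 5.2e-10).

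Tbx3 (ENSMUSG00000018604, chr5:119670669-119684724, plus strand), a T-box factor of the naive state that also acts in endoderm, limb and heart, was the gene among the 10 that was called higher with RA at every time. It was at 20, 19.7 and 19.7 CPM at day 2. At 8 h it was at 10.7, 11.8 and 10.6 CPM without RA and at 44.5, 39.2 and 61.7 CPM with RA. At 18 h the untreated libraries had 8.84, 5.62 and 7.71 CPM and the RA-treated ones 41.5, 53 and 53.1 CPM. The arms were far apart in opposite directions from day 2, with a log2 difference of 2.15 ± 0.18 at 8 h (adjusted p = 0.00062) and 2.74 ± 0.13 at 18 h (adjusted p = 3.9e-09). At 8 h the call was lost without untreated replicate 1 or 3, through adjusted p-values of 0.01 and 0.012 at log2 differences of 2.13 and 2.12. The largest difference was at 30 h, 4.04 ± 0.16 or 16.4-fold, where the untreated libraries had 1.72, 1.47 and 1.38 CPM and the RA-treated ones 27.7, 23.5 and 25 CPM. The untreated values rest on 46, 24 and 27 counts. All untreated libraries of 30 h and RA 30 h replicates 1 and 3 had low Y-linked genes, and their part in this difference was not tested. From 42 h to 78 h the log2 difference lay between 2.41 and 2.97. Relative to day 2, Tbx3 with RA was higher by 1.29 ± 0.15 at 8 h and 1.31 ± 0.15 at 18 h and was not called at 42 h (0.24 ± 0.15) or 78 h (0.31 ± 0.15).

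Klf4 (ENSMUSG00000003032, chr4:55527143-55532466, minus strand), a Krüppel-like factor of the naive state and one of the reprogramming factors, was the first gene to be called lower without RA. It was at 18.7, 19.7 and 22.1 CPM at day 2, and at 8 h at 9, 9.12 and 9.03 CPM without RA and 11.8, 11.2 and 10.6 CPM with RA. The log2 change from day 2 to 8 h was -1.15 ± 0.18 without RA (adjusted p = 4.8e-05) and -0.85 ± 0.17 with it (adjusted p = 0.0002). At 18 h it was at 13.1, 12.2 and 13 CPM without RA and 11.3, 11.6 and 13 CPM with RA, so that the untreated level at 18 h was above that at 8 h in all libraries. The arms were apart at 8 h, overlapped at 18 h and 30 h, and were apart again from 42 h on. At 66 h the libraries had 5.07, 6.7 and 4.5 CPM without RA and 14.2, 15 and 13.9 CPM with RA, a log2 difference of 1.39 ± 0.13 (adjusted p = 1.8e-05). At 78 h it was 1.15 ± 0.22 (adjusted p = 0.0012), and 0.951 without untreated replicate 3. The RA effect at 78 h exceeded that at 18 h by 1.24 ± 0.25 (adjusted p = 0.00019).

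Tfcp2l1 (ENSMUSG00000026380, chr1:118627945-118685168, plus strand) encodes a factor of the naive state downstream of LIF signalling. It was at 114, 116 and 115 CPM at day 2, and at 8 h it was at 64.4, 77.4 and 62.2 CPM without RA and at 120, 106 and 120 CPM with RA. At 18 h the levels were 75.8, 63 and 70.5 CPM without RA and 95.5, 110 and 102 CPM with RA. The RA-treated libraries thus stayed near day 2 while the untreated ones were lower. The log2 difference between arms was 0.78 ± 0.11 at 8 h (adjusted p = 0.0057), 0.57 ± 0.07 at 18 h (adjusted p = 2.3e-05) and 0.88 ± 0.11 at 78 h (adjusted p = 7e-05). It was positive at all 7 times, with 54 h the time at which the libraries overlapped, and was below 2-fold at each. Without RA 78 h replicate 3 it was called at 78 h, at 1.01.

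Esrrb and Zfp42 were called lower than day 2 in both arms at 42 h and 78 h. Esrrb (ENSMUSG00000021255, chr12:86361117-86521628, plus strand), an orphan nuclear receptor and target of Nanog, was at 193, 185 and 179 CPM at day 2, and at 18 h at 125, 103 and 122 CPM without RA and 72.2, 92.4 and 84 CPM with RA. The log2 difference at 18 h was -0.48 ± 0.09 (adjusted p = 0.0005). At 78 h it had the other sign, with 41.7, 35.6 and 33.8 CPM without RA and 72.9, 65.7 and 49.5 CPM with RA, a log2 difference of 0.76 ± 0.13 (adjusted p = 0.00054). This change in sign was tested as an interaction and passed, at 1.26 ± 0.30 (adjusted p = 0.0017). At 30 h RA replicate 2 had 49.3 CPM and RA replicates 1 and 3, with low Y-linked genes, 18.5 and 25.6 CPM. The log2 difference at 30 h was -0.69 ± 0.33, and without replicate 2 it was called, at -1.19.

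Zfp42 (ENSMUSG00000051176, chr8:43295063-43306980, minus strand), the zinc finger gene whose loss marks exit from the naive state, was at 279, 267 and 264 CPM at day 2. At 18 h it was at 161, 148 and 168 CPM without RA and at 147, 159 and 162 CPM with RA. The log2 difference of -0.02 ± 0.06 (adjusted p = 0.79) had an interval from -0.14 to 0.09. At 42 h the log2 change from day 2 was -2.21 ± 0.19 without RA and -2.09 ± 0.19 with RA. At 66 h the RA-treated libraries, with 71.7, 67.7 and 67.8 CPM, lay above the untreated ones, with 46, 42 and 37.5 CPM, by a log2 difference of 0.71 ± 0.08 (adjusted p = 4.9e-05). A pseudogene, Zfp42-ps1, shares 4.36% of its 75-base stretches and had up to 813 counts in a library.

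Nanog (ENSMUSG00000012396, chr6:122707489-122714633, plus strand), the homeodomain factor of the core of the network, was not called in any comparison with day 2 or between arms. It was at 161, 152 and 143 CPM at day 2, and at 18 h at 130, 111 and 124 CPM without RA and 139, 148 and 140 CPM with RA. The log2 difference was 0.24 ± 0.06 (adjusted p = 0.0043) and under the 2-fold threshold. At 54 h the RA-treated libraries had 35.9, 64.5 and 70.4 CPM and the untreated ones 95.9, 94 and 100 CPM, a log2 difference of -0.79 ± 0.18 (adjusted p = 0.0036). At 78 h Nanog was at 91.1, 101 and 82.7 CPM without RA and at 129, 110 and 75.2 CPM with RA, and the arms overlapped. Its log2 change from day 2 to 78 h was -0.73 ± 0.17 without RA (adjusted p = 0.00021) and -0.54 ± 0.17 with RA (adjusted p = 0.0045), below 2-fold in both arms. Its lowest means were 44.4% ± 4.54 of day 2 at 30 h without RA and 37.4% ± 12.1 at 54 h with RA. Neither of these times was compared with day 2.

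Against untreated organoids of the same time, 1 of 10 genes was called at 8 h (Tbx3, higher), where 1.80% of all genes tested were called in either direction. The 285 genes behind that share became 80 to 833 when 1 library was left out, with the highest count without RA 8 h replicate 3, and the 1406 genes called at 30 h became 616 to 2272, with the highest count without RA 30 h replicate 2. At 18 h, 30 h and 42 h the same 3 genes were called, Tbx3 higher and Pou5f1 and Utf1 lower, against 10.9%, 8.45% and 12.5% of all genes. Scaled by library totals, the median of all genes moved by 0.12 at 18 h and 0.14 at 30 h. At 54 h Dppa4 joined the lower genes, 4 of 10 against 13.2%. At 66 h Tbx3 and Klf4 were higher and Pou5f1, Utf1 and Lin28a lower, 5 of 10 against 11.5%, and 5 were also called with the replicate number as a block. Utf1 at 66 h was not called without untreated replicate 2 (-0.985). At 78 h Tbx3 and Klf4 were higher and Pou5f1 and Lin28a lower, 4 of 10 against 11.7%. The median log2 difference over the 10 genes was 0.06 at 8 h, -0.05 at 18 h, 0.02 at 30 h, -0.03 at 42 h, -0.53 at 54 h, 0.39 at 66 h and 0.44 at 78 h, and that of all genes lay between -0.01 and 0.04. Nanog, Esrrb, Zfp42 and Tfcp2l1 were not called at any of the 7 times.

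**Figure D4:**
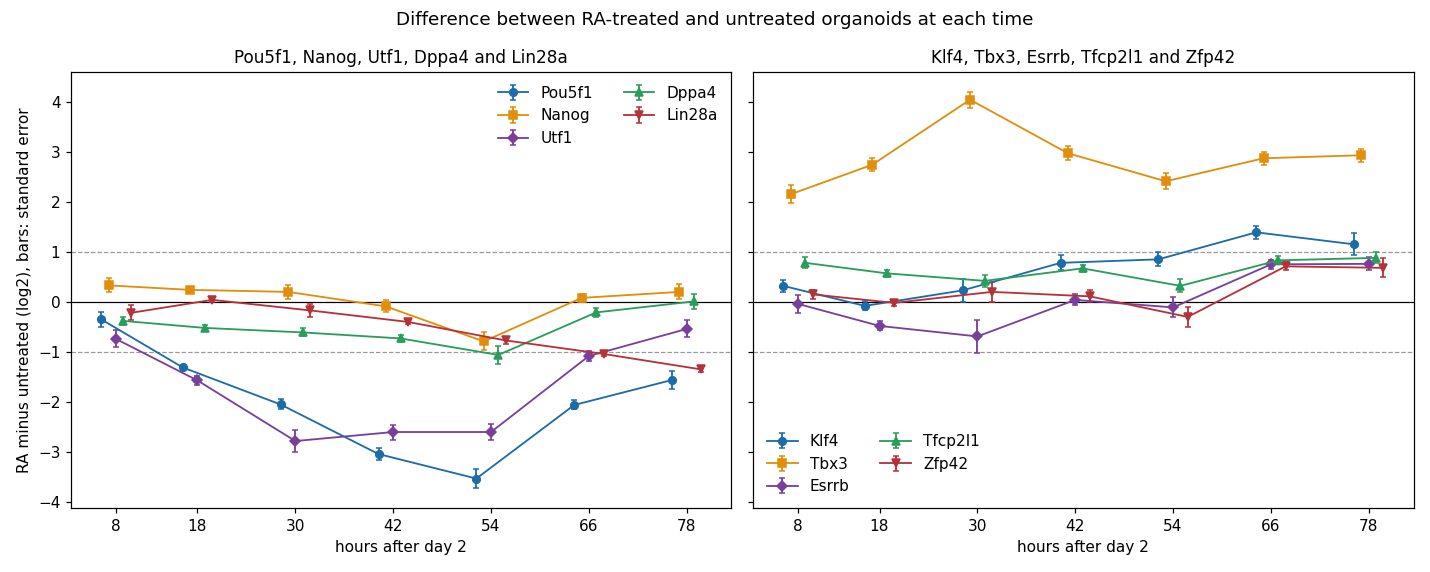
Log2 difference between RA-treated and untreated organoids against hours after day 2, with standard errors, from a separate edgeR fit of 6 libraries at each time (points are shifted sideways for clarity); dashed lines mark 2-fold. Pou5f1 goes to -3.53 at 54 h and back to -1.56 at 78 h, Utf1 to -2.78 at 30 h and back to -0.54, Tbx3 stays above 2, Klf4 passes 1 at 66 h and 78 h, and Lin28a reaches -1.35 at 78 h.

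The RA effect at 18 h and that at 8 h differed at an adjusted p under 0.01 in 0 of the 10 genes, against 1.18% of all genes tested. At an unadjusted p under 0.05 from edgeR, 3 genes passed (Pou5f1, Utf1 and Tbx3), and with DESeq2 1 gene was called. The shares of all genes for these 2 counts are not given here, so neither is a result about the 10 genes. The RA effect at 78 h differed from that at 18 h in 4 of the 10 genes, against 18.4% of all genes. It was higher at 78 h in Klf4, Esrrb and Utf1 and lower in Lin28a. For Utf1, the log2 difference between arms was -1.57 ± 0.09 at 18 h but -0.54 ± 0.17 at 78 h (adjusted p = 0.019), and the change of 1.04 ± 0.28 (adjusted p = 0.005) was lost in 5 of 12 fits without 1 library. The untreated level was 276 ± 11.8 CPM at 18 h and 59 ± 8.14 CPM at 78 h, and with RA it was 92 ± 14.1 CPM and 40.4 ± 10.6 CPM.

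Pou5f1 had its lowest mean with RA at 54 h. Pou5f1 with RA was at 27.8, 51 and 54.9 CPM at 54 h and at 100, 87.6 and 87.8 CPM at 66 h, while untreated Pou5f1 was at 525, 475 and 524 CPM and then at 386, 416 and 334 CPM. This comparison of neighbouring times was chosen after these values were seen. With RA, 1 of 10 genes was called from 54 h to 66 h, Pou5f1, higher by 1.04 ± 0.17 (adjusted p = 0.00018), where 0.922% of all genes were called; it was not called without RA 54 h replicate 1 (0.788) or RA 66 h replicate 1 (0.964). Without RA, 0 of 10 were called, against 0.307% of all genes. At an unadjusted p under 0.05 from edgeR, Pou5f1, Utf1, Lin28a and Dppa4 were lower. The share of all genes at this unadjusted threshold is not given here. The step from 54 h to 66 h differed between the arms in 2 of 10 genes against 0.573% of all genes, by 1.47 ± 0.24 in Pou5f1 (adjusted p = 0.00054) and 1.51 ± 0.29 in Utf1 (adjusted p = 0.0029). Utf1 was not called without RA 54 h replicate 1 or untreated 66 h replicate 3. With RA, the log2 difference of 66 h from 54 h was 0.41 to 1.04 in 9 of the 10 genes and -0.49 ± 0.10 in Lin28a. All libraries of 66 h but only 1 of the 6 of 54 h have the higher library numbers, so that time and library number cannot be told apart in this step.

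Among 32 other genes of the pluripotency network, more were lower than higher with RA. The lower genes numbered 4 at 8 h (where 1.80% of all genes were called in either direction), 8 at 18 h (10.9%), 8 at 30 h (8.45%), 12 at 42 h (12.5%), 14 at 54 h (13.2%), 8 at 66 h (11.5%) and 6 at 78 h (11.7%), and the higher ones 1 or 2 at each time. Of all genes, those called lower were 85 of 15836 at 8 h, 455 of 16508 at 18 h and 412 of 16631 at 30 h. They were 819 of 16508 at 42 h, 983 of 16413 at 54 h, 754 of 16993 at 66 h and 688 of 17059 at 78 h. The largest differences at 18 h were in Fgf5, a growth factor of the postimplantation epiblast, at -4.26 ± 0.09 (edgeR adjusted p = 1.4e-12), and in Otx2, a homeodomain factor of the formative state and the forebrain, at -4.10 ± 0.12 (adjusted p = 2.8e-11). They were followed by Dnmt3b, a de novo DNA methyltransferase, at -2.99 ± 0.06 (adjusted p = 1.3e-12) and Tdh, threonine dehydrogenase, at -2.71 ± 0.07 (adjusted p = 7.1e-12). The median log2 difference of the 32 genes was -0.44 at 18 h and -0.02 at 78 h, against 0.02 and 0.00 for all genes. Against day 2, 25 of the 32 were lower at 78 h without RA, where 31.2% of all genes were called in either direction. With RA 24 were lower, where 34.9% of all genes were called. Of all 19194 genes tested, 2493 were lower without RA and 2720 with it. Their summed level was 9256 to 9492 CPM at day 2, 3167 to 3384 CPM at 78 h without RA and 1925 to 2391 CPM with RA.

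Markers of other cells were followed beside the 10 genes. The 8 neural progenitor markers summed to 474 to 494 CPM at day 2, 436 to 464 CPM at 18 h without RA and 488 to 507 CPM with RA, and at 78 h to 959 to 1071 CPM without and 1087 to 1230 CPM with RA, where 7 of 8 were higher than at day 2 in either arm. Much of the sum was Sox2, a gene that pluripotent cells also express, at 411 ± 8.61 CPM at day 2, 323 ± 9.28 CPM at 18 h without RA and 287 ± 8.64 CPM with it. Against day 2, 4 of the 8 were called higher at 18 h without RA and 5 with RA, with median log2 changes of 1.27 and 1.58. Sox1, an early neural factor, was at 166 ± 14.8 CPM at 78 h without RA and 94.6 ± 2.22 CPM with it. Nes went the other way, at 285 ± 21.3 CPM without RA and 408 ± 48.5 CPM with it. Between the arms at 78 h, the median log2 difference of the 8 markers was 0.22. Of the 8, 0 were called, against 11.7% of all genes. The 6 germ cell markers, from a lineage that also expresses Pou5f1, Nanog and Dppa4, summed to 119 to 124 CPM at day 2, and at 78 h to 35.7 to 41.9 CPM without RA and 98.5 to 126 CPM with it. Tfap2c, a factor of germ cells that trophoblast also expresses, was at 74 ± 3.41 CPM with RA, while the germ cell gene Ddx4 was at 11.4 ± 1.07 CPM without and 10.2 ± 3.18 CPM with RA. The 6 trophoblast markers summed to 10.5 to 13.2 CPM without RA and 114 to 121 CPM with RA at 78 h, of which Krt7, a keratin of simple epithelia, was 85.1 ± 6.09 CPM, and Elf5 was below 1 CPM in both arms. The 6 endoderm markers summed at 18 h to 3.7 to 4.2 CPM without RA and 19.6 to 21.7 CPM with RA, where Sox17 was at 0.226 ± 0.0594 and 8.43 ± 1.07 CPM. The part of such cells in the higher Tbx3 and Klf4 with RA was not tested. The 6 mesoderm markers summed at 78 h to 4.59 to 5.75 CPM without and 16.4 to 19.3 CPM with RA. Hand1, which trophoblast also expresses, was 0.516 ± 0.463 CPM and 16.5 ± 1.29 CPM of these, whereas T (Brachyury) was lower with RA, at 3.38 ± 0.739 and 0.725 ± 0.225 CPM (log2 difference -2.20 ± 0.26, edgeR adjusted p = 3.9e-05), and the median log2 difference of the 4 markers tested was -0.71. At 78 h the 5 neural crest markers summed to 18.1 to 19.5 CPM without and 25.1 to 32 CPM with RA. At 18 h the order was the opposite, with sums of 51.3 to 52.4 CPM without and 8 to 10.6 CPM with RA. Much of the untreated sum at 18 h was Foxd3, at 44.6 ± 0.688 CPM without RA and 0.711 ± 0.171 CPM with it. Foxd3 was at 72.9 ± 5.54 CPM at day 2 and was also called lower with RA at 78 h (log2 difference -1.55 ± 0.26, edgeR adjusted p = 0.00051).

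The genes with the profile most like each of the 10 were found by Pearson correlation over the 15 condition means of log2(CPM + 1), among 14307 other genes with a mean of at least 1 CPM. All points share libraries and the day 2 level, so the correlations are a description. The closest to Pou5f1 was Ccdc58 (r = 0.995), then L1td1 (0.988). For Utf1 they were Ctbp2 (0.987), Etv5 (0.986) and L1td1 (0.984), so that L1td1 stood in both lists. Zfp42 had its pseudogene Zfp42-ps1 (0.998), with which it shares sequence, then Pecam1 and Nr5a2 (both 0.983), and Dppa4 had C330002G04Rik (0.995) and Dennd2c (0.994). Esrrb was most like Pigl (0.971), Tbx3 like Nudt4 (0.973), Tfcp2l1 like Adgrd1 (0.952), Lin28a like Alox5 (0.944), Klf4 like Znfx1 (0.934) and Nanog like Hydin (0.902). Within the 10 genes, the correlations that were highest after that of Pou5f1 with Utf1 were those of Esrrb with Zfp42 (0.93) and of Zfp42 with Dppa4 (0.90). The lowest were those of Klf4 with Lin28a (-0.49) and of Tbx3 with Lin28a (-0.43).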

How the data were processed

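RNA of 45 libraries was sequenced, and the authors deposited 1 table of raw read counts per gene. Per the labels and the methods, reads were trimmed with Trim Galore 0.5.0, freed of abundant sequences with Bowtie2 2.3.4.1, aligned with STAR to GRCm38 and counted with featureCounts (Subread 1.6.2). Counts were not normalised by the authors. The label text gives another RA unit and other times than the titles and the methods, which were followed here. Groups were taken from the sample titles.

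From the counts, genes were filtered with filterByExpr (minimum count 10, minimum total 15), scaled by TMM and tested with the quasi-likelihood test of edgeR 4.0.16 in R 4.3.3, with Benjamini-Hochberg adjustment over all genes tested. RA was compared with untreated in 6 libraries at each time, comparisons with day 2, interactions and steps in 1 fit of 45 libraries, and slopes in 15 libraries. CPM used TMM-scaled library sizes, and times to 50% of day 2 used log2(CPM + 0.1). Scripts were tested on simulated data. The alternatives were library totals, other filters, DESeq2 1.42.0, a looser threshold, a replicate block, fits of only the libraries compared, and leaving out each library. All 10 genes were named, with up to 4 genes of the network list of largest change among those called at 18 h, and the most alike genes (up to 3 per gene). Marker genes named singly were chosen after their values were seen. The members and lists were chosen with earlier results of these data known. Replicate numbers carry no stated meaning. At 66 h the deviations of same-numbered replicates of the arms correlated at 0.54, 0.215 and 0.254, but not every library correlated best with its own number. The mean correlation of same-numbered replicates was -0.152 at 18 h and -0.264 at 42 h.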

Additional observations from a re-analysis of the deposited data

Results flagged for a closer look

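By the interaction test of edgeR, 4 of the 10 genes had another RA effect at 78 h than at 18 h. Of all genes tested, 18.4% passed this test. The log2 difference of the RA effect, 78 h minus 18 h, was 1.24 in Klf4 (adjusted p = 0.00019), 1.26 in Esrrb (adjusted p = 0.0017), 1.04 in Utf1 (adjusted p = 0.005) and -1.37 in Lin28a (adjusted p = 5.2e-10). The call of Utf1 was lost in 5 of 12 fits without 1 library. The step from 54 h to 66 h differed between the arms by 1.47 in Pou5f1 (adjusted p = 0.00054) and 1.51 in Utf1 (adjusted p = 0.0029), against 0.573% of all genes. This step was chosen for testing after its values were seen, so its p-values are not independent of that choice. Utf1 was not called without RA 54 h replicate 1 (1.28) or untreated 66 h replicate 3 (1.38). Library number moved with time in both comparisons, and its part was not tested.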

How the results depend on the processing

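At a threshold of adjusted p 0.05 without a fold limit, the members called between arms were 4 at 8 h, 7 at 18 h, 5 at 30 h, 7 at 42 h, 7 at 54 h, 8 at 66 h and 8 at 78 h. Against day 2 they were 5 for untreated 8 h, 7 for RA 8 h and 6 for untreated 18 h, and 8 from RA 54 h to RA 66 h. With an adjusted p under 0.05, 1 was called for 18 h against 8 h and 5 for the difference of the steps. Library totals gave 3 members for RA 18 h against day 2. No filter gave 2 for 18 h against 8 h and 6 for the steps, DESeq2 gave 1 for 18 h against 8 h, and fits of only the libraries compared gave 0 for RA 66 h against 54 h, where edgeR gave Pou5f1 an adjusted p of 0.017. The cause was not tested. The shares of all genes called under these alternative settings are not given here. The counts of members in this paragraph are therefore not results about the members as a set.

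With library totals, the time to 50% was 59.1 h for Pou5f1 without RA, 26.9 h for Klf4 with RA, 18.2 h for Esrrb with RA, 20.5 h and 21.7 h for Zfp42 without and with RA, 23.3 h for Tfcp2l1 without RA, 73.8 h for Lin28a with RA, and 25.4 h and 19.3 h for Dppa4 without and with RA. Without the 30 h time point, an alternative chosen after seeing the data, it was 37.9 h for Klf4 with RA, 23.4 h for Esrrb without RA, 21.9 h and 21.8 h for Zfp42, 26.3 h and 48.0 h for Tfcp2l1, 35.7 h for Utf1 without RA and 26.5 h for Dppa4 without RA.

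Sign changes were confined to log2 differences near 0. With library totals these were Klf4 at 18 h (0.0316), Zfp42 at 18 h (0.0950), Tfcp2l1 (0.0846) and Lin28a (0.0653) for RA 8 h against day 2, Lin28a for untreated 18 h against day 2 (0.0609), Nanog (0.109) and Tfcp2l1 (0.0336) for RA 18 h against day 2, and the slopes of Klf4 (0.0668) and Lin28a (0.0310). Tfcp2l1 for RA 8 h against day 2 was 0.00419 with no filter, 0.0220 with at least 10 counts and 0.0295 in only the libraries compared, where Lin28a for untreated 18 h was 0.00106. The slope difference was -0.00359 for Zfp42 with no filter, and for Klf4 0.0217 with at least 10 counts and 0.0525 from day 2 to 30 h. With the replicate number as a block, Dppa4 at 78 h was -0.0123, and the block changed no count of members called. At 30 h every library correlated best with its own number.

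Leaving out 1 library gave 0 to 4 members for RA 66 h against 54 h, 1 to 3 for the steps and 1 to 3 for RA 8 h against day 2. It gave 0 to 1 at 8 h between the arms and 0 to 1 for 18 h against 8 h. These counts of members are not results about the members as a set. Among all genes, such fits called 1329 to 1519 for RA 8 h against day 2 and 80 to 833 at 8 h between the arms. The time to 50% of Tfcp2l1 with RA became 28.1 to 48.0 h. Leaving out 1 library also moved some counts over all genes by more than 1.5 times: from 227 to between 139 and 458 for 18 h against 8 h, from 177 to between 109 and 140 for RA 66 h against 54 h, from 59 to between 28 and 60 for the untreated step, from 110 to between 47 and 108 for the difference of the steps, and from 72 to between 40 and 59 for untreated 8 h against day 2. Between arms the ranges were -0.163 to 0.190 for Dppa4 at 78 h, -0.263 to 0.115, -0.0725 to 0.138 and -0.298 to 0.133 for Esrrb at 8 h, 42 h and 54 h, -0.0169 to 0.400 for Klf4 at 30 h, -0.197 to 0.0638 and -0.00596 to 0.162 for Nanog at 42 h and 66 h, and -0.0763 to 0.0240 and -0.0887 to 0.329 for Zfp42 at 18 h and 30 h. Against day 2 they were -0.127 to 0.129 for Lin28a at RA 8 h, -0.0191 to 0.0322 at RA 18 h, -0.0458 to 0.000867 at untreated 18 h and -0.0183 to 0.0725 at untreated 78 h, -0.205 to 0.0553 for Nanog and -0.0341 to 0.0672 for Tfcp2l1 at RA 8 h. Slope differences were -0.0571 to 0.0450 for Klf4 and -0.0138 to 0.0450 for Zfp42, and interactions of Nanog -0.216 to 0.0254 (18 h against 8 h) and -0.234 to 0.128 (78 h against 18 h). For untreated 66 h against 54 h they were -0.139 to 0.0112 for Esrrb, -0.192 to 0.0992 for Klf4, -0.0171 to 0.144 for Nanog, -0.0254 to 0.149 for Tbx3 and -0.0247 to 0.0985 for Tfcp2l1.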
